A study of Rattus norvegicus with 36 samples.

Results

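Apolipoproteins are the proteins that the liver and intestine put on lipoprotein particles, and 10 of their genes are described here: Apoa1, Apoa2, Apoa4, Apoa5, Apob, Apoc1, Apoc2, Apoc3, Apoe and Apoh. They were chosen by name, as the probe sets of a rat expression array whose annotation gives one of these symbols alone. All 10 genes were measured, by 12 of the 31042 probe sets tested, since Apob and Apoe had 2 probe sets each. RNA came from the livers of male Harlan Sprague Dawley rats, 7 weeks of age when the study began, in 6 groups of 6 samples. The groups received corn oil alone (vehicle) or the flame retardant hexachlorocyclopentadienyl-dibromocyclooctane (HCDBCO) in corn oil, by gavage on 5 days in a row. The doses were 0.05 mg/kg, 0.54 mg/kg, 5.41 mg/kg, 54.1 mg/kg and 541 mg/kg. Liver was taken 1 day after the last dose, and each value is a log2 RMA value, a background-corrected and normalised array signal on the log2 scale. Each dose was set against vehicle, to find transcripts that differ.

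Lipoproteins carry cholesterol and triglyceride in blood. Apolipoprotein B forms the frame of the very low density particles that hepatocytes secrete. The A-I protein is the main protein of high-density lipoprotein, which also carries A-II. The smaller C proteins and apolipoprotein E move between particles and control how fast lipases and receptors act on them. Most of these transcripts are among the most abundant of the hepatocyte. The genes lie partly in clusters: in the RefSeq gene table of assembly GRCr8, Apoa1, Apoc3, Apoa4 and Apoa5 follow each other directly, and so do Apoc2, Apoc4, Apoc1 and Apoe.

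RefSeq's promoter table for GRCr8 matched 6 of the 10 genes, Apoa4, Apoa5, Apoc1, Apoc2, Apoe and Apoh. The 250 bases before the listed start are shown for Apoa5, the gene that passed a test below, for its neighbour Apoa4, and for Apoc2 of the other cluster. Capitals mark letters that match 1 of 4 motifs, searched on both strands: TATAAA (the TATA box), AGGTCA (a half-site of nuclear receptors), CACGTG (an E-box) and CAAAGTCC (the core of the HNF4 motif, which reads GGACTTTG on the other strand).
Apoa5 (GRCr8 chr8:55457621-55457870, + strand, the first of 2 listed starts): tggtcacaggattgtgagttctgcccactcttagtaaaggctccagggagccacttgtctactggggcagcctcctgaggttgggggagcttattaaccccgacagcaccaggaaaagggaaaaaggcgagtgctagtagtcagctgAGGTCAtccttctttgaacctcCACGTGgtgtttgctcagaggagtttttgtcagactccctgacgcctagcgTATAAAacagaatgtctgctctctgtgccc
Apoa4 (GRCr8 chr8:55435529-55435778, + strand): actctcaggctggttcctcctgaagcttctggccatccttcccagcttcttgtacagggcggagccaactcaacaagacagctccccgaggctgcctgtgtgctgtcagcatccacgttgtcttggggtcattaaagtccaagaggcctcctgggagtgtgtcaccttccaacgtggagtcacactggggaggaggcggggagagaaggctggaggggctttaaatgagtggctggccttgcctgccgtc
Apoc2 (GRCr8 chr1:88462366-88462615, - strand): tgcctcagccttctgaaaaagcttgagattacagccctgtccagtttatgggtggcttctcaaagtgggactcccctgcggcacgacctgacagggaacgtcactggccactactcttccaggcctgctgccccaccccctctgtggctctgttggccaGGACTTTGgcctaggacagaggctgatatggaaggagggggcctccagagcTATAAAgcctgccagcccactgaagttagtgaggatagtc
The Apoa5 window held a TATAAA from 30 to 25 bases before the start, a CACGTG from 81 to 76 bases before it and an AGGTCA from 103 to 98 bases before it. The Apoc2 window held a TATAAA from 40 to 35 bases before the start and the HNF4 core on the other strand from 91 to 84 bases before it. None of the 4 motifs matched in the Apoa4 window, nor at any listed start of Apoc1, Apoe and Apoh, which are not shown. The window of the second listed start of Apoa5 held the TATAAA and the CACGTG but no AGGTCA. Among 33469 promoter windows of the same length, 12.9% held TATAAA, 14.1% AGGTCA, 5.59% CACGTG and 1.14% CAAAGTCC. The matches describe these letters and were not tested as sites.

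Array signals for these genes lay near the top of the array's range. The brightest probe sets of Apoa1, Apoa2, Apob, Apoc1, Apoc2, Apoc3, Apoe and Apoh averaged between 13.41 and 14.24 log2 units over the 36 samples, where the brightest probe set of the array averaged 14.72. Only 5 probe sets were brighter than that of Apoc3 and 9 brighter than that of Apoe, while 308 were brighter than that of Apoa5 and 490 brighter than that of Apoa4, although brightness also depends on the probes and does not rank the transcripts. The spread between samples of a group was small at this end of the scale. It was 0.0167 log2 units for Apoh and 0.0175 for Apoc3, but 0.106 for Apoa5 and 0.274 for Apoa4 (residual SD over the 6 groups). Over the 102 probe sets with a mean above 13 the median residual SD was 0.0513, against 0.139 over all probe sets. Differences between groups may be compressed where a signal is close to the top, and whether this applied here was not tested. A second probe set of Apoe averaged 3.10, a level below that of 87.9% of probe sets, and a second one of Apob averaged 7.76.

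**Figure D1:**
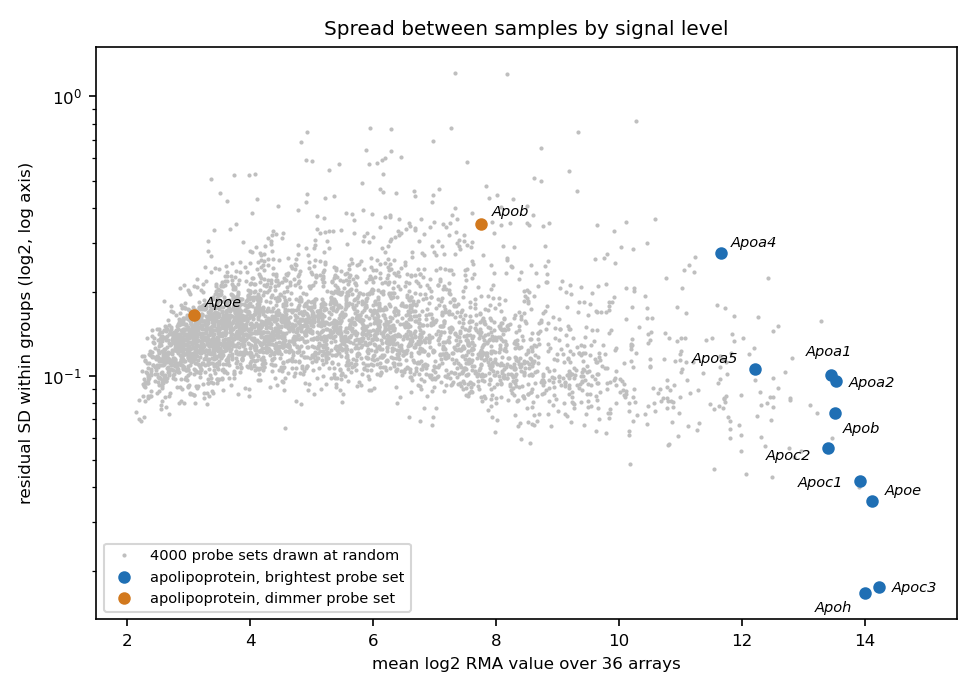
Mean log2 RMA value of a probe set over the 36 arrays (x axis) against the residual SD of its samples within the 6 groups (y axis, log scale), for a random draw of probe sets (grey), the brightest probe set of each apolipoprotein gene (blue) and the dimmer ones of Apob and Apoe (orange). The brightest sets lie at 11.66 to 14.24 on the x axis, and Apoa4 has the widest spread of them, at 0.274.

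No array was identical to another, and the arrays correlated with each other at 0.991 to 0.997 across probe sets. The array of 54.1 mg/kg replicate 5 stood apart, with a lower quartile of 3.80 where the 35 other arrays had 3.62 to 3.72. As a measure of RNA quality, the signal of the actin control at its 3′ end exceeded that at its 5′ end by 1.04 to 1.29 log2 units at 541 mg/kg, by 0.97 to 1.29 at 54.1 mg/kg and by 1.05 to 1.26 in vehicle. Of 15 measured hepatocyte markers, none averaged below 5 log2 units (range 9.28 to 14.72, with albumin, Alb, among them), while 5 of 7 enterocyte markers, 2 of 5 bile duct markers and 6 of 8 lymphocyte and neutrophil markers did. So did 1 of 7 endothelial and 1 of 3 erythroid markers, but none of 9 Kupffer cell and macrophage markers (6.69 to 10.15) and none of 10 stellate cell markers (5.52 to 11.01). In a bulk sample, fewer cells of a type and less RNA per cell cannot be told apart.

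At 541 mg/kg, 9 of the 10 genes had a lower mean than in vehicle on their brightest probe set, as did 46.7% of all probe sets, but no difference passed the FDR of 5% over all probe sets (limma). The median log2 difference of the 10 genes was -0.08, and that of all probe sets was 0.0076. The call rate over all probe sets was 0.155% in this comparison, and 0 of the 12 apolipoprotein probe sets were called. At an unadjusted p below 0.05, 4 of the 12 were lower (Apoa1, Apoa4, Apoa5 and Apoc2) and none higher, where 9.07% of all probe sets passed in either direction and 4.58% were lower. At 54.1 mg/kg 7 of the 10 genes had lower means, as did 45.9% of all probe sets, with a median difference of -0.04 against 0.0096 for all probe sets. None of the 12 probe sets was called there, where the call rate was 0.0741%, and 1, that of Apoa5, had an unadjusted p below 0.05, where 9.2% of all probe sets did.

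**Figure D2:**
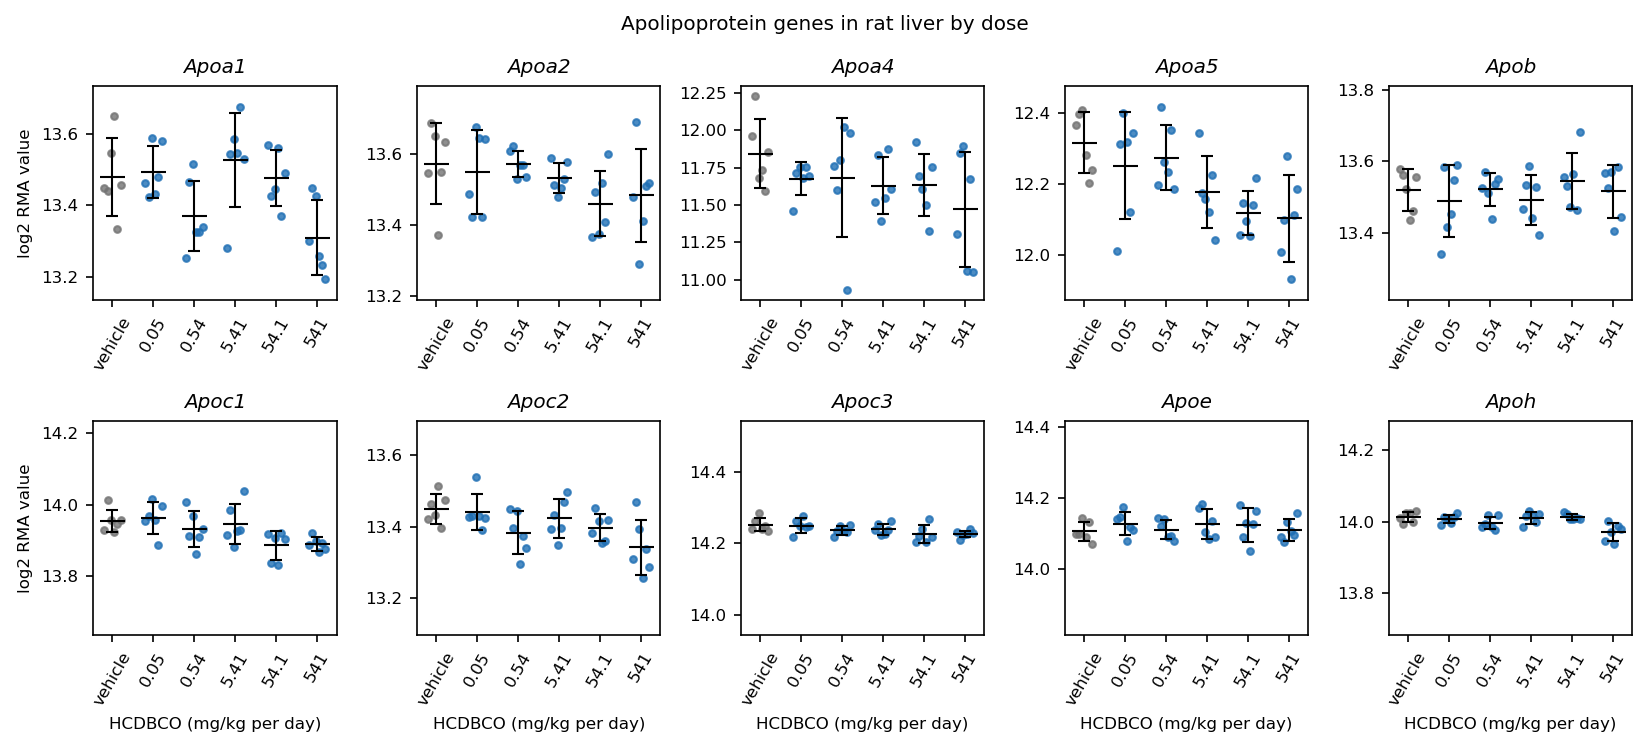
Log2 RMA values (y axis, with a scale of its own in each panel) of the brightest probe set of 10 apolipoprotein genes in 36 liver samples, by dose group (x axis, vehicle in grey, HCDBCO in blue); each point is 1 sample, and the bars are the mean and SD of 6 samples. Apoa5 averaged 12.10 at 541 mg/kg and 12.32 in vehicle, while Apoe averaged 14.11 in both groups.

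Apoa5, which encodes a plasma protein that promotes the breakdown of triglyceride by lipoprotein lipase, fell along the dose order. Its 6 samples of each group had a lowest, median and highest value of 12.20, 12.32 and 12.41 in vehicle, 12.01, 12.31 and 12.40 at 0.05 mg/kg, 12.19, 12.25 and 12.41 at 0.54 mg/kg, 12.04, 12.17 and 12.34 at 5.41 mg/kg, 12.05, 12.12 and 12.22 at 54.1 mg/kg, and 11.93, 12.11 and 12.28 at 541 mg/kg. At both 541 and 54.1 mg/kg, 5 of the 6 samples lay below every vehicle sample and all 6 below the vehicle mean. At each of these doses 1 sample overlapped with the vehicle group. How common such partial separation was over all probe sets was not counted, for this gene or for those below. A linear trend over the 6 groups, scored 0 to 5 in the order of dose, gave a slope of -0.04 ± 0.01 per dose step (SE; limma adjusted p = 0.0409). Over the 5 steps this came to -0.22 log2 units (95% interval -0.33 to -0.11), or -14.3% on the linear scale. It was the 1 apolipoprotein probe set of 12 past the FDR for the trend, where 0.715% of all probe sets were called and 0.374% were called with a falling slope. The call was lost without the vehicle samples (slope -0.05, adjusted p = 0.314). It was also lost without any 1 of vehicle replicates 1 to 4, 0.05 mg/kg replicates 2, 3, 4 and 6, 54.1 mg/kg replicates 1, 3 and 4, and 541 mg/kg replicates 1, 2, 4 and 5, with adjusted p up to 0.0945. Without 54.1 mg/kg replicate 5, the array that stood apart, it held (adjusted p = 0.0399).

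Set against vehicle dose by dose, Apoa5 did not pass. Its log2 difference was -0.06 ± 0.06 at 0.05 mg/kg, -0.04 ± 0.06 at 0.54 mg/kg, -0.14 ± 0.06 at 5.41 mg/kg, -0.20 ± 0.06 at 54.1 mg/kg and -0.21 ± 0.06 at 541 mg/kg (limma's SE, as after each ± below where no SD is named, n = 6 per group; limma adjusted p = 1, 0.999, 0.977, 0.282 and 0.196). Between 541 and 54.1 mg/kg it was -0.01 ± 0.06 (limma adjusted p = 0.999). For the 2 highest doses against the 3 lowest, which leaves the vehicle samples out of the contrast, it was -0.12 ± 0.04 (limma adjusted p = 0.296).

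Neither Apoa1 nor Apoa2, which encode proteins of high-density lipoprotein, passed in any comparison. Apoa1, which encodes the protein that takes up cholesterol from cells and activates the enzyme LCAT, had 13.19, 13.28 and 13.45 as its lowest, median and highest value at 541 mg/kg, against 13.33, 13.45 and 13.65 in vehicle. The 541 mg/kg group lay lower with overlap, and 4 of its 6 samples were below every vehicle sample. The difference was -0.17 ± 0.06 (95% interval -0.29 to -0.05; limma adjusted p = 0.332). At 54.1 mg/kg Apoa1 differed from vehicle by less than 0.01, with an interval of -0.13 to 0.12, and 541 against 54.1 mg/kg gave -0.17 ± 0.06 without passing (limma adjusted p = 0.969). At 0.54 mg/kg its mean was also lower than in vehicle, at 13.37 ± 0.10 against 13.48 ± 0.11 (SD, n = 6), so that its group means did not follow the order of dose. Apoa2 was -0.09 ± 0.06 at 541 mg/kg and -0.11 ± 0.06 at 54.1 mg/kg (limma adjusted p = 0.692 and 0.577). Its groups overlapped widely, at 13.29 to 13.69 at 541 mg/kg and 13.37 to 13.69 in vehicle.

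Apoa4, made mainly in the intestine and in rodents also in liver, had the largest point difference among the 10 genes and the widest spread. At 541 mg/kg its lowest, median and highest values were 11.05, 11.49 and 11.89, against 11.59, 11.79 and 12.23 in vehicle. Replicates 1, 4 and 6 of the 541 mg/kg group lay below every vehicle sample, and the other 3 lay within the vehicle range. The difference was -0.37 ± 0.15 (95% interval -0.67 to -0.07; limma adjusted p = 0.4). The means of the lower doses were 11.68 at 0.05, 11.68 at 0.54, 11.63 at 5.41 and 11.63 at 54.1 mg/kg, all below the vehicle mean of 11.84, and none of these differences passed.

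Among the C apolipoproteins, small proteins that exchange between particles, Apoc1 separated the 2 highest doses from vehicle by very little. Apoc1, whose product slows the uptake of remnant particles, had 13.87, 13.89 and 13.92 as its lowest, median and highest value at 541 mg/kg and 13.83, 13.90 and 13.92 at 54.1 mg/kg, against 13.92, 13.95 and 14.01 in vehicle. All 6 samples of each of these doses lay below every vehicle sample, by a margin that vanishes at 2 decimals. Of all probe sets, 0.351% had the same complete separation at 541 mg/kg and 0.37% at 54.1 mg/kg. The differences were -0.06 ± 0.04 at 541 mg/kg and -0.07 ± 0.04 at 54.1 mg/kg (limma adjusted p = 0.637 and 0.596). The 3 lower doses all overlapped with vehicle.

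Apoc2, which encodes the activator of lipoprotein lipase, had 13.26, 13.32 and 13.47 at 541 mg/kg as its lowest, median and highest value, against 13.40, 13.45 and 13.51 in vehicle. In 5 of the 6 treated samples it was below every vehicle sample, and replicate 2, at 13.47, was within the vehicle range. The difference was -0.11 ± 0.04 (95% interval -0.19 to -0.02; limma adjusted p = 0.378), and -0.05 ± 0.04 at 54.1 mg/kg. Apoc3, which encodes an inhibitor of that lipase, was at 14.21 to 14.24 at 541 mg/kg and at 14.24 to 14.28 in vehicle. Its difference was -0.03 ± 0.03, with an interval of -0.09 to 0.04 (limma adjusted p = 0.867), and 5 of the 6 treated samples lay below every vehicle sample. For this gene limma's standard error, drawn toward the spread common to all probe sets, is wide beside its own residual SD of 0.0175. With the variance allowed to follow the signal and robust moderation, applied together, the standard error was 0.0204 and the adjusted p 0.766. Under the same setting Apoc1 at 541 mg/kg had a standard error of 0.0286 and a limma adjusted p of 0.475. Its residual SD was 0.0422. A residual SD is a spread between single samples and a standard error that of a difference between group means, so their sizes do not compare directly.

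**Figure D3:**
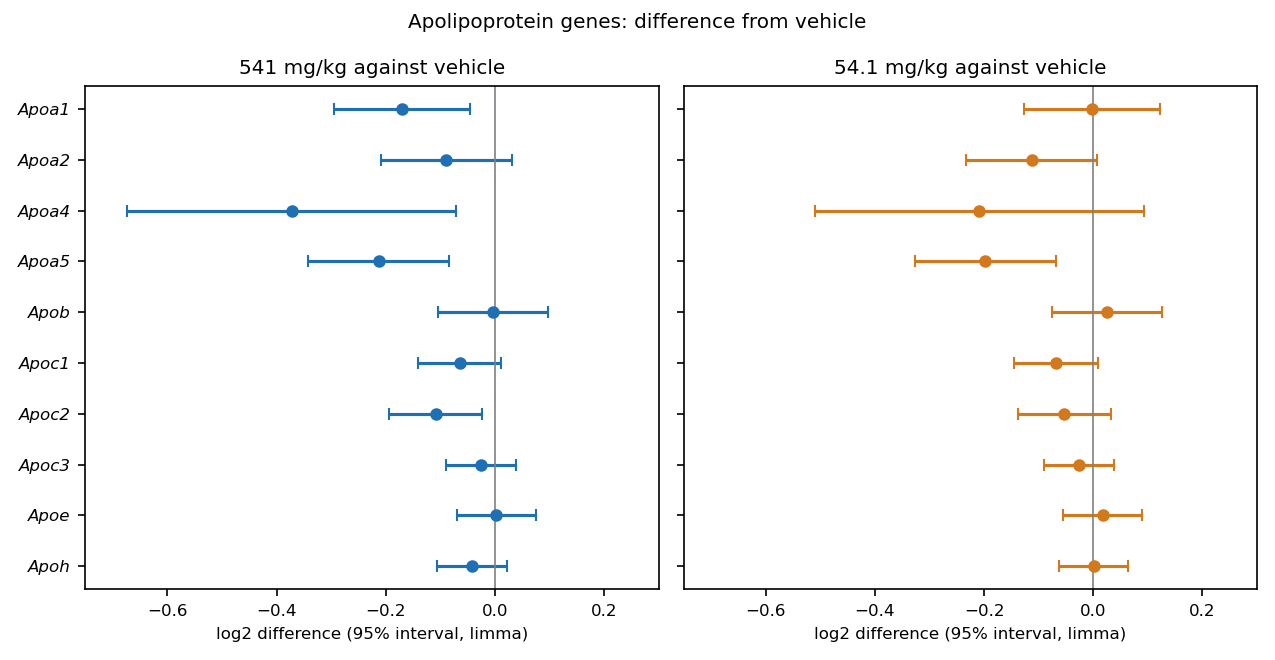
Log2 difference from vehicle (x axis; point and 95% interval from limma, 6 samples per group) of the brightest probe set of 10 apolipoprotein genes at 541 mg/kg (left) and 54.1 mg/kg (right). The intervals of Apoa1, Apoa4, Apoa5 and Apoc2 lie below 0 at 541 mg/kg and that of Apoa5 at 54.1 mg/kg; none of these passed the FDR.

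Apob and Apoe, with the smallest differences at 541 mg/kg, were within 0.01 log2 units of vehicle on their brightest probe sets. Apob was at 13.40 to 13.58 at 541 mg/kg, against 13.43 to 13.58 in vehicle, with an interval of -0.10 to 0.10 (limma adjusted p = 0.99). Its dimmer probe set gave 0.34 ± 0.19 at 541 mg/kg (interval -0.04 to 0.72; limma adjusted p = 0.606), from values of 7.71 to 8.48 against 7.13 to 8.11 in vehicle. The difference between the 2 probe sets was not tested, and their intervals overlap. They correlated at r = 0.37 over the 36 samples once group means were subtracted. Apoe, whose product binds the LDL receptor and clears remnant particles, was at 14.08 to 14.16 at 541 mg/kg, against 14.07 to 14.14 in vehicle. Its interval at 541 mg/kg ran from -0.07 to 0.08 (limma adjusted p = 0.988). In linear terms the intervals at 541 mg/kg were -6.96% to 6.93% for Apob and -4.68% to 5.36% for Apoe. The dim probe set of Apoe was at -0.11 ± 0.09 (limma adjusted p = 0.773), near the bottom of the scale.

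Apoh, which encodes a phospholipid-binding plasma glycoprotein, was at 13.94 to 14.00 at 541 mg/kg and at 13.99 to 14.03 in vehicle. In 5 of 6 treated samples it was below every vehicle sample, a count whose share over all probe sets was not taken. The difference was only -0.04 ± 0.03 (interval -0.11 to 0.02, limma adjusted p = 0.739). Here too limma's standard error is wide beside the gene's own residual SD, which was 0.0167. With the variance allowed to follow the signal and robust moderation, applied together, the standard error was 0.0207 and limma's adjusted p 0.551. At 54.1 mg/kg Apoh was within 0.01 of vehicle.

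At the 3 lowest doses no probe set of the array passed the FDR (limma), and the call rate was 0%. For the 12 apolipoprotein probe sets, 1 had an unadjusted p below 0.05 at 5.41 mg/kg (Apoa5), none at 0.54 mg/kg and none at 0.05 mg/kg, where 4.83%, 4.18% and 3.02% of all probe sets did. The median difference of the 10 genes was -0.02 at 5.41, -0.02 at 0.54 and -0.01 at 0.05 mg/kg. These comparisons and those of the higher doses share the same 6 vehicle samples. None of the 12 was called for 541 against 54.1 mg/kg (call rate 0.00322%), for the 2 highest against the 3 lowest doses (0.287%) or for any difference among the 6 groups (0.0999%), all by limma. At an unadjusted p below 0.05 the first of these held 1 of the 12 (Apoa1), where 4.76% of all probe sets passed. The second held 3 (Apoa2, Apoa5 and Apoc1), against 8.61% of all, and the third held 2 (Apoa1 and Apoa5), against 5.99% of all.

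Along the trend, 8 of the 10 genes had a slope below 0, as did 46.1% of all probe sets. At an unadjusted p below 0.05, 6 of the 12 probe sets had a falling slope, those of Apoa1, Apoa2, Apoa4, Apoa5, Apoc1 and Apoc2, where 6.05% of all probe sets did and 12% passed in either direction. Over the 5 steps the slopes came to -0.11 for Apoa1, -0.11 for Apoa2, -0.29 for Apoa4, -0.08 for Apoc1 and -0.09 for Apoc2 in log2 units, with adjusted p of 0.411, 0.379, 0.329, 0.303 and 0.269 (limma). In the cluster of Apoa5, Apoc3 came to -0.03 over the 5 steps (adjusted p = 0.746), and next to Apoc1, Apoe came to less than 0.01 (adjusted p = 0.986). Differences between the slopes of genes were not tested.

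Hepatocyte markers also had mostly lower means at the highest dose. The mean of 15 markers per sample ran from 13.17 to 13.26 at 541 mg/kg, with a median of 13.22, and from 13.24 to 13.35 in vehicle, with a median of 13.28. Of these markers 11 had lower means at 541 mg/kg, as did 46.7% of all probe sets, and none passed the FDR. Their differences ran from -0.47 (Tat) to 0.03, with a median of -0.04, against 0.0076 for all probe sets. Fga at -0.09 ± 0.04, Tat at -0.47 ± 0.22 and Serpina1 at -0.07 ± 0.04 had the smallest p. The largest were those of Rbp4, Ttr, Alb and Ambp (limma, unadjusted p of 0.838 to 0.997). The mean of the 10 apolipoprotein genes ran from 13.25 to 13.43 at 541 mg/kg, with a median of 13.34, and from 13.39 to 13.51 in vehicle, with a median of 13.46. Endothelial markers averaged 7.45 to 7.65 at 541 mg/kg and 7.54 to 7.91 in vehicle (7 markers), and 7 of 7 had lower means, with Stab2 at -0.27 ± 0.10, Stab1 at -0.30 ± 0.12 and Kdr at -0.18 ± 0.08 first by p and none past the FDR. A dimmer probe set of Kdr was at 0.12. The part of these markers in the apolipoprotein values was not tested.

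Markers of other cells gave no call either at 541 mg/kg against vehicle (limma). Lower means were found for 7 of 10 stellate cell, 4 of 9 Kupffer cell and macrophage and 1 of 5 bile duct markers. The same held for 1 of 8 lymphocyte and neutrophil, 2 of 3 erythroid and 2 of 7 enterocyte markers, and for 46.7% of all probe sets. In each list the 3 smallest p values belonged to the following genes. Among 10 stellate cell markers these were Rgs5 at 0.34 ± 0.12, Lrat, which stores retinol as esters, at -0.18 ± 0.08, and Des at -0.17 ± 0.10. Among 9 Kupffer cell and macrophage markers they were Cd163 at -0.12 ± 0.15, Cd5l at 0.20 ± 0.29 and Csf1r at 0.09 ± 0.16. Among 5 bile duct markers they were Epcam at 0.24 ± 0.12, Krt7 at 0.15 ± 0.19 and Cftr at 0.06 ± 0.08. Among 8 lymphocyte and neutrophil markers they were S100a8 at 0.36 ± 0.20, Cd3d at 0.10 ± 0.07 and S100a9 at 0.19 ± 0.26. Among 3 erythroid markers they were Slc4a1 at 0.16 ± 0.08, Hbb at -0.03 ± 0.12 and Alas2 within 0.01 of vehicle. Among 7 enterocyte markers they were Si at 0.15 ± 0.08, Vil1 at 0.10 ± 0.10 and Alpi at 0.05 ± 0.08. Of the genes named here, Si, Cftr, Krt7, Cd3d, Vil1, S100a8 and Slc4a1 were dim, with means from 2.65 (Si) to 4.55 (Slc4a1). The median probe set averaged 5.11 log2 units. Whether differences at such low signals reflect these transcripts or background was not tested.

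Between samples, the apolipoprotein genes were correlated only in part. With each group's mean subtracted, 36 of 45 pairs correlated above 0 over the 36 samples and the median r was 0.14, as a description in which the samples share arrays and normalisation. The highest was that of Apoc1 and Apoc2, which lie in the same cluster (r = 0.58), followed by Apoa1 with Apoh (0.47) and Apoa1 with Apoc2 (0.46). The lowest was between Apoa1 and Apoc3 (-0.20), which are direct neighbours. Apoa5 correlated at 0.40 with Apob and 0.31 with Apoe, and at 0.14 with Apoa4, next to it in the genome.

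**Figure D4:**
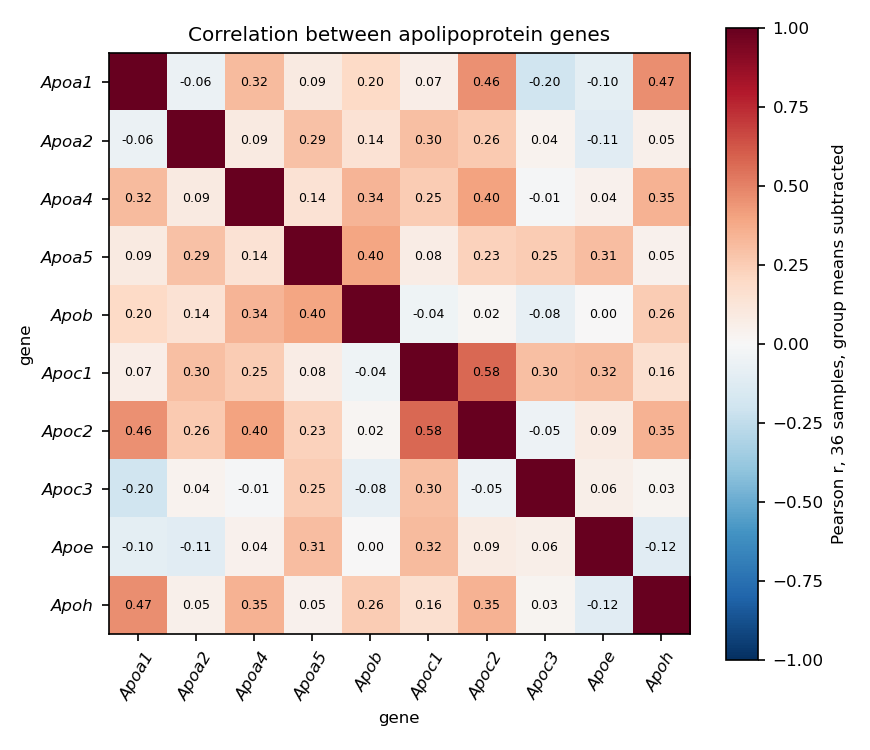
Pearson correlation between the brightest probe sets of 10 apolipoprotein genes over 36 liver samples, after each group's mean was subtracted (red above 0, blue below 0; genes on both axes). Apoc1 with Apoc2 reaches 0.58, and Apoa1 with Apoc3 is lowest at -0.20.

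Among 5715 other genes with a mean of at least 7 log2 units, those most like each apolipoprotein gene within groups were as follows, by Pearson r over the 36 samples. Apob was closest to Fn1 (0.79), the gene of the secreted protein fibronectin, followed by Pc (0.74), pyruvate carboxylase, and Huwe1 (0.71). Apoe was closest to Abtb1 (0.76), Slc25a1 (0.76), the mitochondrial citrate carrier, and Rabac1 (0.72). Apoa4 was closest to Polr2l (0.71), Apoc2 to Serpina4 (0.69), Apoc1 to Tmem30a (0.67), Apoa1 to Fabp12 (0.67), Apoa5 to Pdzrn3 (0.66), Apoa2 to Spink1 (0.64), Apoh to Cobl (0.62) and Apoc3 to Hacd1 (0.53). Without subtracting group means, Apoa5 was closest to Socs2 (0.73), Pdzrn3 (0.72) and Xbp1 (0.71), and Apoh had Apoa1 among its 3 closest genes (0.67). With so many genes searched, these are picked maxima and carry no test.

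Other genes of lipoprotein metabolism were taken from lists chosen by function. Of 7 other measured apolipoprotein genes none passed in any comparison, and at 541 mg/kg Apon was at 0.22 ± 0.09, Apom at -0.16 ± 0.07 and Apoc4, between Apoc2 and Apoc1 in the genome, at -0.07 ± 0.07. Of 18 genes of lipoprotein assembly and secretion none passed, and the median difference at 541 mg/kg was 0.03. Apobec1, the enzyme that edits Apob mRNA, was at 0.29 ± 0.12 and had a trend short of the FDR (adjusted p = 0.0971), and Sar1b (0.09 ± 0.05) and Surf4 (-0.09 ± 0.06), both of the export route from the endoplasmic reticulum, came next by p. The dimmer probe set of Surf4 was at 0.01. Of 11 genes that remodel lipoproteins in plasma none passed. At 541 mg/kg 8 of them had lower means, as did 46.7% of all probe sets. Their median was -0.08, against 0.0076 for all probe sets, and 1 of the 11 had an unadjusted p below 0.05 (limma). Among the 11 were Angptl4, an inhibitor of lipoprotein lipase, at -0.58 ± 0.24, and Gpld1 at -0.14 ± 0.08. Lcat, which esterifies the cholesterol of high-density lipoprotein, was at -0.08 ± 0.05.

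Of 14 receptors and cholesterol exporters, 2 passed, both for the trend and both falling: Abcg5 and Abcg8, the 2 subunits of the transporter that moves sterols from hepatocytes into bile. Over all probe sets 0.715% were called for the trend and 0.374% were called falling. Abcg5 averaged 8.80 ± 0.33 in vehicle, 8.62 ± 0.22 at 0.05, 8.73 ± 0.43 at 0.54, 8.04 ± 0.20 at 5.41, 7.71 ± 0.75 at 54.1 and 8.05 ± 0.45 at 541 mg/kg (SD, n = 6), with a slope of -0.20 ± 0.04 per dose step (limma adjusted p = 0.00807). Abcg8 averaged 7.37 ± 0.43 in vehicle, 7.03 ± 0.46 at 0.05, 7.29 ± 0.58 at 0.54, 6.43 ± 0.29 at 5.41, 6.04 ± 0.88 at 54.1 and 6.37 ± 0.66 at 541 mg/kg, with a slope of -0.25 ± 0.05 (limma adjusted p = 0.0145). For both, the means of the 3 highest doses lay below those of the 3 other groups, and the lowest mean was at 54.1 mg/kg. Without the vehicle samples the slopes were -0.22 ± 0.05 for Abcg5 and -0.26 ± 0.07 for Abcg8, and neither passed (limma adjusted p = 0.121 and 0.186).

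Of 23 transcription factors that act on apolipoprotein genes, none passed on its brightest probe set. Onecut1, a liver-enriched factor, averaged 7.51 ± 1.48 at 541 mg/kg, against 9.59 ± 0.65 in vehicle (SD, n = 6; difference -2.08 ± 0.62, limma adjusted p = 0.19). Its means at 0.05, 0.54, 5.41 and 54.1 mg/kg, which were 8.40, 8.37, 8.17 and 7.43, were below the vehicle mean as well. Its trend missed the FDR on this probe set (adjusted p = 0.0716) and passed on the dimmer one, at -0.34 ± 0.08 per dose step (limma adjusted p = 0.0418). Cebpa, a factor of hepatocyte differentiation, was at -0.46 ± 0.18 at 541 mg/kg on its brightest probe set and between -0.55 and -0.40 on its 4 others, none past the FDR. Nr1h3, the oxysterol receptor LXR-alpha, was at 0.12 ± 0.05.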

How the data were processed

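The deposited values were the authors' log2 values, 1 per probe set and array for 36 rat liver samples. RMA and the affy package are named in the submitters' processing notes, without versions. That the scale is log2 was taken from RMA's usual output and the range of the values, 1.94 to 14.74; raw intensities were not used here. Removing 57 control probe sets gave 31042 for the tests.

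Gene names came from the array annotation: 20826 probe sets had 1 symbol, 436 several and 9780 none listed. A gene was represented by its brightest probe set on average. Others are given beside it for the 10 members and for some of the other named genes. Fga, Cd5l and Slc4a1 had 2 probe sets each, of which the dimmer is not given. All 10 Entrez IDs matched RefSeq's table of GRCr8, used for names, neighbours and promoters.

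Groups and replicate numbers came from the sample titles. The fit, by limma 3.58.1 under R 4.3.3, held all samples and 6 group means; the design text names R/maanova, which was not used. Tests were two-sided, adjusted by Benjamini-Hochberg over the 31042 probe sets, and called at an FDR of 5%. No label ties a sample to a numbered animal, so the spread behind a p-value may be technical in part. No batch is given in the labels.

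The members, gene lists and comparisons were chosen with earlier results of these data known. Named were all 10 members. Each other list gave its members past the FDR, or else the 3 with the smallest p at 541 mg/kg. The 4 motifs were chosen by hand.

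The fit was tested on simulated data, with changes of 0.25 or 0.5 log2 units put into 200 probe sets in each of 3 rounds. Of changes of 0.25, 27% were recovered at 541 mg/kg against vehicle and 45% for the trend. Of changes of 0.5, 83% and 90.3% were recovered. False calls made up 5.46% and 5.76% of the calls. Over the array as a whole, changes of 0.25 or less can thus often be missed. The recovery rates do not describe single apolipoprotein genes, whose brightest probe sets had residual SDs from 0.0167 (Apoh) to 0.274 (Apoa4). The median residual SD over all probe sets was 0.139. Recovery for the apolipoprotein probe sets was not tested separately. The number of arrays limits the precision.

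Alternatives were median centring, a filter on dim probe sets, array weights, only the compared groups, the replicate block, robust variance moderation with an intensity trend (changed together), the mean over probe sets, and leaving out each sample. A trend without the vehicle samples was added after the data had been seen.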

Additional observations from a re-analysis of the deposited data

Results flagged for a closer look

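In 72 sets of 6 samples (12 probe sets in 6 groups), 6 had 1 sample far from the other 5; by chance about 1 in 20 would. Apoa1 was at 13.28 in 5.41 mg/kg replicate 1, with the others between 13.53 and 13.68. Apoa4 was at 11.46 in 0.05 mg/kg replicate 1, with the others between 11.68 and 11.75. Apoc2 was at 13.54 in 0.05 mg/kg replicate 3, above 13.39 to 13.43 in the others. Apoc1 was at 14.01 in vehicle replicate 2, above 13.92 to 13.96 in the others. The dimmer probe set of Apob was at 8.14 in 0.54 mg/kg replicate 6, above 7.70 to 7.84. The dim probe set of Apoe was at 3.52 in 0.05 mg/kg replicate 2, above 2.99 to 3.16.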

How the results depend on the processing

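The count of apolipoprotein probe sets past the FDR stayed at 0 in each dose comparison, for 541 against 54.1 mg/kg, for the 2 highest against the 3 lowest doses and for any difference among the groups, under every alternative run. For the trend it was 1 under the 5 alternatives that kept all samples, 0 or 1 when 1 of the 36 samples was left out (1 in 21 of 36 fits), and 0 without the vehicle samples. The slope of Apoa5 kept its sign throughout, at -0.05 to -0.04 per dose step, and its adjusted p with 1 sample left out ran from 0.0141 to 0.0945. The trend calls of Abcg5 and Abcg8 held in 36 of 36 such fits.

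With the replicate number as a block, which is paired by number only, no call changed: the trend count was 1 and Apoa5 had an adjusted p of 0.0417. Samples of the same number correlated at a median of 0.01 in their deviations from the group means (90 pairs, -0.26 to 0.23), and 5 of 36 samples correlated best with their own number.

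Differences close to 0 changed sign under some alternatives, none of them called. Apob at 541 mg/kg was 0.168 as the mean of its probe sets and -0.0207 to 0.0187 with 1 sample left out, and at 54.1 mg/kg -0.00197 to 0.0421. Apoe at 541 mg/kg was -0.0036 with median centring, -0.0533 as the mean of its probe sets and -0.00656 to 0.0105 with 1 sample left out. The slope of Apoe was -0.00091 with centring, -0.00023 with array weights, -0.0089 as the mean of its probe sets, -0.0024 without the vehicle samples and -0.00084 to 0.0018 with 1 sample left out. Apoa1 at 54.1 mg/kg was 0.0227 with array weights and -0.0313 to 0.0323 with 1 sample left out, and Apoh -0.0128 with centring and -0.00337 to 0.00387. The causes were not tested.

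Counts over all probe sets moved more. At 541 mg/kg 48 passed, against 83 with the filter, 80 with array weights and 31 with only the compared groups. At 54.1 mg/kg 23 passed, against 37, 64 and 43. For the trend 222 passed, against 376 with the filter, 376 with weights and 45 without the vehicle samples. The number of arrays per group, 6, limits the precision.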

Other observations

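Kupffer cell and macrophage markers, such as the scavenger receptor Cd163, gave values apart from the comparisons above. For the 2 highest against the 3 lowest doses 9 of 9 had lower means, with a median log2 difference of -0.13, against 0.0019 for all probe sets, and none past the FDR (limma), at a range of -0.21 to -0.08. Against vehicle, their median was 0.27 at 0.05 mg/kg, where 0 of 9 had lower means, 0.06 at 0.54 mg/kg, 0.10 at 5.41 mg/kg, -0.01 at 54.1 mg/kg and 0.09 at 541 mg/kg. The 0.05 mg/kg group thus lay highest and is part of the 3 lowest doses. The 9 markers were measured in the same samples and are not separate observations. Their mean per sample varied within groups, with an SD from 0.25 at 541 mg/kg to 0.41 at 5.41 mg/kg. The share of all probe sets with lower means was not counted, either for the 2 highest against the 3 lowest doses or at 0.05 mg/kg. None of the 9 markers had an unadjusted p below 0.05 in these 2 comparisons (limma), where 8.61% and 3.02% of all probe sets did. The pattern was noticed after the values had been seen.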
